A study of Mus musculus with 4 samples.

Results

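The insulin-like growth factor (IGF) axis was followed through 10 genes, taken by symbol from a deposited table of 54152 gene symbols: the ligand gene Igf1, the receptor genes Igf1r and Igf2r, and the binding protein genes Igfbp1, Igfbp2, Igfbp3, Igfbp4, Igfbp5, Igfbp6 and Igfbp7. All 10 were found in the table. RNA was sequenced from whole uteri of pregnant C57 mice on day 4, in 2 libraries labelled p38α dd and 2 libraries labelled p38α ff. The series title sets p38α knockout against wild-type uteri, p38α being the stress-activated kinase encoded by Mapk14. The labels give neither the way the deletion was made nor the cells in which it occurs, and no label ties a replicate to an animal of its own. The spread behind the p-values is therefore that between these libraries, which may be technical.

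IGF1 is a secreted peptide that acts through the receptor tyrosine kinase IGF1R to promote growth and survival. In the rodent uterus it is made largely in stroma, is induced by estrogen and drives epithelial proliferation. IGF2R binds IGF2 and carries it to lysosomes without relaying a growth signal, and the binding proteins hold the ligands, extend their life or keep them from the receptor. IGFBP7 is a relative with low affinity for the IGFs that lies in basement membranes.

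The libraries labelled dd held 24619850 and 30868922 counts, and those labelled ff held 32451670 and 30202955. Counts of Mapk14 did not fall in the libraries labelled dd, with 2481 and 3429 counts against 3074 and 2710 in those labelled ff. Its log2 change, 0.28, was not called by the quasi-likelihood test of edgeR (adjusted p = 0.12), so each direction given here rests on the labels dd and ff alone. The uterine homeobox genes Hoxa10 and Hoxa11 were present in every library. Hoxa10 had 6536 and 8364 counts in the libraries labelled dd and 13547 and 11912 in those labelled ff. Both genes were called lower by edgeR (Hoxa10 log2 −0.51, adjusted p = 0.0458, and Hoxa11 log2 −0.50, adjusted p = 0.0364). Both are also among the markers of uterine stroma given below. The number of cells of a type and the RNA per cell cannot be told apart in such bulk samples.

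Igf1 fell in the libraries labelled dd and was the only member of the axis to pass edgeR's test. The other 8 tested members had log2 changes between −1.43 and −0.16 that did not pass. Over all genes, 3.86% of 18530 tested were called lower and 4.52% higher at an adjusted p under 0.05, against 1 lower and 0 higher of the 9 tested members. At an unadjusted p under 0.05, 6 of the 9 were lower, as were 14.4% of all tested genes, and 0 were higher. The log2 change was below 0 in 9 of 9, and in 49.7% of all tested genes. The median log2 change of the 9 tested members was −0.46, beside 0.00 for all tested genes. Igfbp1 did not pass the filter on low counts. In 6 of the 9 tested members both libraries labelled dd lay below both labelled ff in CPM, the read count scaled to a common library size with TMM factors. The same held for 31.3% of all tested genes.

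The 250 bases before the start site are shown for Igf1, Igf2r and Igfbp5, the 3 members with the smallest p in edgeR's test. In each both libraries labelled dd lay below both labelled ff, which held for 6 of the 9 tested members. They are RefSeq sequences of build GRCm38.p6, written 5′ to 3′ on the gene's strand, with capitals for letters matched by any of 6 motifs.
Igf1, chr10:87860861-87861110, strand +: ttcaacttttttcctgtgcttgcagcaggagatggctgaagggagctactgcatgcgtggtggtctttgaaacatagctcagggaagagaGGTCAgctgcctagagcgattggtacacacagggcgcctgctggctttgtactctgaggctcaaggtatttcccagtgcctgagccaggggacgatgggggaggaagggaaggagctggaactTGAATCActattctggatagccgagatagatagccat
Igf2r, chr17:12769707-12769956, strand -: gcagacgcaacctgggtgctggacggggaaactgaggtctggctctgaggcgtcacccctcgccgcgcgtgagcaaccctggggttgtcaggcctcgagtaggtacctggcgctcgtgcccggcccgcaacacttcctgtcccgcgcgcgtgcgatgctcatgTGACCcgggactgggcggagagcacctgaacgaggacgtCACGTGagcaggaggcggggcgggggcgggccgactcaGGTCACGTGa
Igfbp5, chr1:72874866-72875115, strand -: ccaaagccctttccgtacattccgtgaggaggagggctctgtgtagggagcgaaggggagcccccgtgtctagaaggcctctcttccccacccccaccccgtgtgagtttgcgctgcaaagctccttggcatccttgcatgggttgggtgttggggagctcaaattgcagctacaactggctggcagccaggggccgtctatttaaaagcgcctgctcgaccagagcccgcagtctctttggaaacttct
The motifs, searched on both strands, were the TATA box core (TATAAA), the AP-1 site (TGANTCA), the cAMP response element (TGACGTCA), the estrogen receptor core motif (GGTCA), the progesterone receptor core motif (TGTTCT) and the E-box (CACGTG). AP-1 and the factors that bind the cAMP response element are known endpoints of stress-activated kinases. The Igf1 window held TGAATCA from −37 to −31 relative to the start site. It matches the AP-1 pattern only because N, the centre letter of TGANTCA, stands for any base. An estrogen receptor core match in the Igf1 window ran from −160 to −156. The Igf2r window held 2 estrogen receptor core matches and 2 E-boxes, the last pair of which overlap as GGTCACGTG. The Igfbp5 window held none of the 6.

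All 10 members had a RefSeq window, Igfbp2 with 2, giving 11 in all. An AP-1 match stood in 2 of these 11 windows (Igf1 and Igfbp2) and in 6.75% of 32851 windows of the same length. The estrogen receptor core motif stood in 6 of 11 and in 35.2% of all windows, and the cAMP response element in 0 of 11 and in 1.55%. TATAAA was found in 2 of 11 and in 12.4%, TGTTCT in 1 of 11 and in 16.1%, and CACGTG in 2 of 11 and in 6.02%. The RefSeq start of Igf1 lies 2846 bases downstream of the first base of the gene in GENCODE release M21, so other starts of Igf1 lie outside this window. Such matches describe the letters only.

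Igf1 (chromosome 10, 87858265 to 87937042, mm10), the ligand gene, had 4556 and 5115 counts in the libraries labelled dd, against 11534 and 13370 in those labelled ff. These correspond to 193 and 169 CPM in the libraries labelled dd and 346 and 429 CPM in those labelled ff. Every library labelled dd was below both labelled ff, and the replicates of a group differed by a factor of 1.14 in dd and 1.24 in ff. The mean was 181 ± 16.9 CPM in dd and 388 ± 58.5 CPM in ff (SD, n = 2 each), a ratio of 0.466. The log2 change was −1.10 (SE 0.149, 95% interval of the edgeR fit −1.49 to −0.72, adjusted p = 0.0273). In the authors' deposited table the fold of Igf1 is 0.466, and its p before adjustment 0.0178. The call was kept without ff replicate 2 (log2 −0.94, adjusted p = 0.0389) and lost without ff replicate 1 (−1.25, 0.0545), dd replicate 1 (−1.19, 0.0583) or dd replicate 2 (−1.01, 0.0822).

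**Figure D1:**
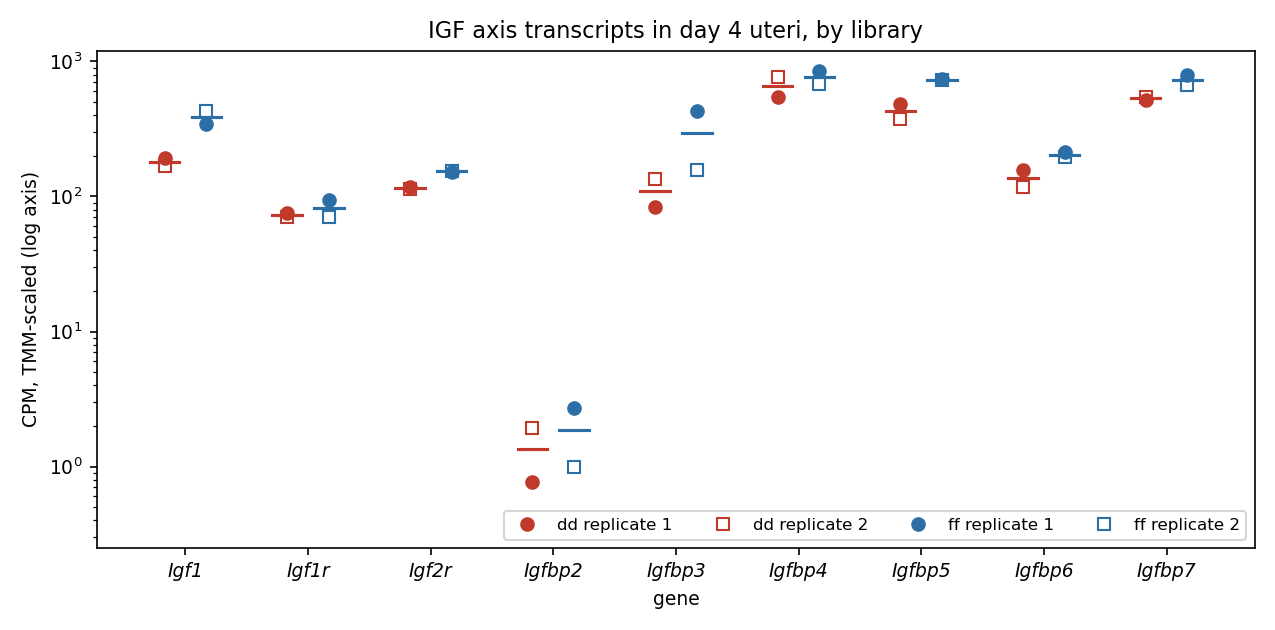
CPM on a log axis of the 9 tested IGF axis genes in each library, red for dd and blue for ff, circles for replicate 1 and squares for replicate 2, with bars at the group means. Igf1 lies at 193 and 169 CPM in dd below 346 and 429 CPM in ff, while ff replicate 1 stands apart for Igfbp3 at 431 CPM.

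Igf2, the other IGF ligand, was taken from a list of further ligands, insulin receptors and a carrier. It had 0 and 1 counts in the libraries labelled dd and 3 and 5 in those labelled ff, too few to be tested. Of its exonic bases, 62.8% are shared on the same strand with Gm49394, a gene listed at 0 counts in all 4 libraries. No source used here says how the authors treated reads that fall in both genes, so the level of Igf2 is uncertain. The insulin genes Ins1 and Ins2 had 0 counts or 1 in every library.

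Both receptor genes were expressed in every library. Igf1r (chromosome 7, 67952827 to 68233668), the signalling receptor, had 1792 and 2142 counts in the libraries labelled dd and 3123 and 2188 in those labelled ff. On the CPM scale these were 75.8 and 70.7 in dd and 93.8 and 70.3 in ff, so the groups overlapped. The log2 change of Igf1r was −0.16 (95% interval −0.57 to 0.24, edgeR adjusted p = 0.536), and it stood at 0.061 without ff replicate 1.

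Igf2r (chromosome 17, 12682406 to 12769664), the scavenging receptor and an imprinted gene expressed from the maternal allele in most mouse tissues, had 118 and 113 CPM in the libraries labelled dd and 152 and 155 CPM in those labelled ff. These values had the closest replicates of the axis, differing by factors of 1.04 in dd and 1.02 in ff, and the groups did not overlap. The log2 change was −0.41 (SE 0.0823) and fell just short of the threshold (edgeR adjusted p = 0.0508). It passed in edgeR with upper quartile factors (adjusted p = 0.042), without scaling factors (0.0336) and without a filter (0.04). It also passed with a filter of 1 CPM in 2 libraries (0.0487), in DESeq2 (0.00342) and at a threshold of 0.1. These were 6 of 17 alternatives. The fits of Igf2r that did not pass included limma-voom (adjusted p = 0.0528) and the replicate block in edgeR (0.0905). Leaving out 1 library gave log2 changes of −0.43 to −0.38, without a call. Airn, the antisense RNA that overlaps Igf2r, had 378 and 355 counts in dd and 671 and 665 in ff, and its log2 change of −0.58 also missed the threshold (edgeR adjusted p = 0.121). Their annotated exons share no base, and no source used here says whether reads were counted by strand.

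Among the binding proteins, the members differed in how far the groups separated and in how closely replicates matched. Igfbp3 (chromosome 11, 7206086 to 7213923), the main carrier of IGFs in blood, had the lowest fitted change and widely spread replicates. It had 1986 and 4052 counts in the libraries labelled dd, against 14346 and 4853 in those labelled ff. On the CPM scale the values were 84.1 and 134 in dd and 431 and 156 in ff. The groups did not overlap, but ff replicate 1 was 2.77 times ff replicate 2. The log2 change of −1.43 did not pass edgeR's test (SE 0.524, adjusted p = 0.156). Leaving out ff replicate 1 gave −0.52, and leaving out ff replicate 2 gave −1.99. Only this last fit, which holds 1 library labelled ff, passed among those that left out a library (edgeR adjusted p = 0.0366). In the authors' deposited table the fold of Igfbp3 is 0.371, and its p before adjustment 0.00229. Of the other members only Igf1 had a deposited p under 0.05. The authors' p before adjustment was 0.3711 for Igf2r, 0.0928 for Igfbp5, 0.2095 for Igfbp6 and 0.3224 for Igfbp7.

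Igfbp5 (chromosome 1, 72857932 to 72874884), a matrix-bound binding protein, had 483 and 375 CPM in the libraries labelled dd, against 746 and 724 CPM in those labelled ff. Both values in dd were lower than both in ff, and the log2 change was −0.78 (SE 0.156, 95% interval −1.18 to −0.37). It missed the threshold by a small margin (edgeR adjusted p = 0.0514). It passed in edgeR with the replicate number as a block (adjusted p = 0.0431), with upper quartile factors (0.0482) and without scaling factors (0.0349). It also passed without a filter (0.00624), with limma-voom (0.0469), in DESeq2 (0.000136) and at a threshold of 0.1. These were 7 of 17 alternatives. The fits of Igfbp5 that did not pass included edgeR with a filter of 1 CPM in 2 libraries (adjusted p = 0.0501). Leaving out 1 library gave log2 changes of −0.96 to −0.60, without a call.

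Igfbp6 (chromosome 15, 102144362 to 102149511), which prefers IGF2 over IGF1, had 156 and 118 CPM in the libraries labelled dd and 213 and 195 CPM in those labelled ff. The log2 change was −0.58 (edgeR adjusted p = 0.0929), with no overlap between the groups. Igfbp7 (chromosome 5, 77349240 to 77408041) had 515 and 550.0 CPM in dd and 787 and 672 CPM in ff. Its log2 change was −0.46 (edgeR adjusted p = 0.099), again without overlap. DESeq2 called both, with adjusted p-values of 0.0196 for Igfbp6 and 0.0151 for Igfbp7. Among 17 alternatives Igfbp6 passed in 3 and Igfbp7 in 2. Of the exonic bases of Igfbp7, 7.0% are shared on the opposite strand with Polr2b, an RNA polymerase subunit gene with a log2 change of −0.12.

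Igfbp4 (chromosome 11, 99041244 to 99054392), an inhibitor of IGF action that is cleaved by the protease PAPP-A, had 543 and 762 CPM in the libraries labelled dd and 844 and 677 CPM in those labelled ff. The groups overlapped, and the log2 change was −0.22 (95% interval −0.77 to 0.33, edgeR adjusted p = 0.536). Without dd replicate 1 it was 0.0091. Igfbp2 (chromosome 1, 72824503 to 72852474) had only 18 and 58 counts in dd and 91 and 31 in ff. Its log2 change of −0.46 had a 95% interval from −2.17 to 1.24, and turned to 0.44 without ff replicate 1 and to 0.039 without dd replicate 1. Igfbp1 (chromosome 11, 7197782 to 7202546), a decidual and hepatic binding protein in humans, had 0 counts in both libraries labelled dd and 3 and 0 in those labelled ff. At these depths 3 counts correspond to between 0.0924 and 0.122 CPM of the total counts, so no level of Igfbp1 was established in either group.

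**Figure D2:**
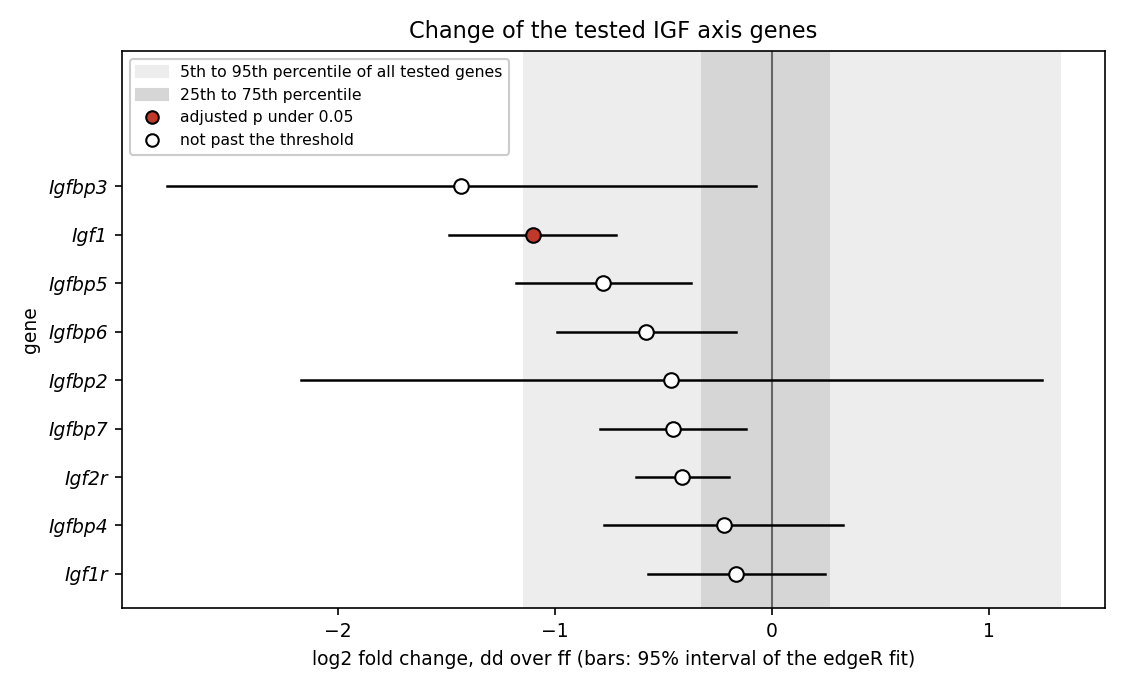
Log2 fold change of dd over ff for each tested IGF axis gene, with its 95% interval from the edgeR fit, over grey bands that mark the percentiles of all 18530 tested genes. Only Igf1, filled, passed at −1.10, and all 9 points lie below 0.

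Several binding protein genes lie side by side. Igfbp2 and Igfbp5 face each other on chromosome 1 with 5457 bases between them, and Igfbp1 and Igfbp3 face each other on chromosome 11 with 3539 bases between them, in both cases with 0 protein-coding genes between. In both pairs the neighbours differed widely in level. Igfbp5 had between 11358 and 24821 counts per library, against 18 to 91 for Igfbp2, and Igfbp3 had between 1986 and 14346 counts, against 0 to 3 for Igfbp1.

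The authors' FPKM values, which divide by gene length, allow levels to be compared between genes. The length implied by these values was 9917 bases for Igf1, close to the 9904 bases covered by any annotated exon of the gene. The level of a gene with long alternative ends may therefore be understated, but use of such ends was not measured. On the FPKM scale Igfbp7 led with 423 and 457 in the libraries labelled dd and 652 and 555 in those labelled ff. Igfbp4, Igfbp6, Igfbp5 and Igfbp3 followed, with means over the 4 libraries of 160, 153, 96.8 and 64.3 FPKM. Igfbp4 and Igfbp6 changed places between the groups, with means of 148 FPKM for Igfbp4 and 123 FPKM for Igfbp6 in dd, and of 172 FPKM for Igfbp4 and 184 FPKM for Igfbp6 in ff. Igf1 came next, at 19.4 and 17.1 FPKM in dd and 35.0 and 43.2 FPKM in ff. Below it were Igf2r, with a mean of 14.5 FPKM, Igf1r with 4.62 and Igfbp2 with 0.867. Igfbp1 was listed at 0 FPKM in 3 of the 4 libraries. The ranges over the 4 libraries overlapped between neighbours from Igfbp4 down to Igf1, and did not overlap between the other neighbours. Within each library, Igfbp6 was above Igfbp5 and Igfbp3 above Igf1, whereas Igfbp4 was above Igfbp6 only in dd replicate 2, and Igfbp5 above Igfbp3 in all but ff replicate 1.

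**Figure D3:**
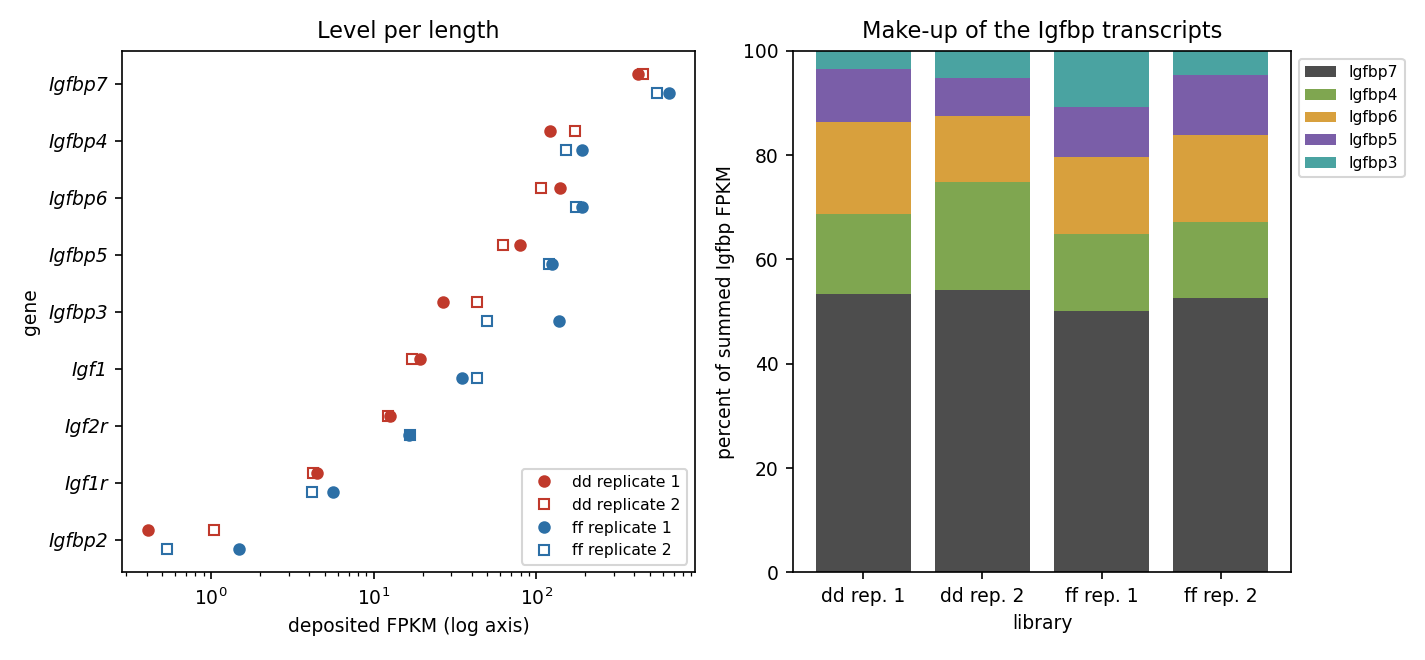
Left, deposited FPKM on a log axis of 9 IGF axis genes in the libraries labelled dd (red) and ff (blue), ordered by the mean over the 4 libraries. Right, percent of the summed Igfbp FPKM taken by each of the 5 most abundant binding protein genes, with Igfbp7 between 50.2% and 54.2% in every library.

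The summed FPKM of the 7 binding protein genes was 792 and 843 in the libraries labelled dd and 1298 and 1053 in those labelled ff. Igfbp7 made up 53.4% and 54.2% of it in dd, and 50.2% and 52.7% in ff. The share of Igfbp3 was 3.37% and 5.09% in dd and 10.6% and 4.71% in ff, so it was ff replicate 1 alone that stood out. The summed binding protein level divided by the Igf1 level was 40.9 and 49.2 in dd and 37.1 and 24.4 in ff. Both libraries labelled dd had the higher ratio, while their summed binding protein level was the lower. Between 50.2% and 54.2% of the sum is Igfbp7, which has low affinity for the IGFs, so the ratio does not stand for ligand binding. With 2 libraries a group an exact two-sided permutation test cannot go below p = 0.333, and none is given.

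Markers of tissue compartments moved between the same libraries. Of 14 markers of uterine stroma, a known source of Igf1, 6 were called lower and 0 higher, with a median log2 change of −0.58. Their summed level was 12450 and 9233 CPM in the libraries labelled dd and 17910 and 15870 CPM in those labelled ff. Most of this sum came from the collagen genes Col1a1, Col1a2, Col3a1 and Col6a1, none of which was called by edgeR. Of 14 epithelial markers 6 were higher and 0 lower, at a median of 0.99 and summed levels of 3281 and 3700 CPM in dd and 1433 and 1669 CPM in ff. Of 10 endothelial markers 9 were lower, with summed levels of 718 and 759 CPM in dd and 1550 and 1334 CPM in ff, and of 8 macrophage markers 4 were lower, at 260.2 and 258 CPM in dd and 426 and 484 CPM in ff. None of these markers was at 0 in all libraries, and their part in the values of the IGF axis was not tested.

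The members were also set against the stroma of their own library, a description chosen after the values were seen. Counts of Igf1 divided by counts of Pdgfra, a receptor of stromal fibroblasts, were 1.38 and 1.10 in the libraries labelled dd. They were 1.23 and 1.45 in those labelled ff, so the groups overlapped on this scale. Pdgfra was itself called lower (log2 −0.97, edgeR adjusted p = 0.0214). The log2 changes of the 14 stromal markers ran from −1.03 for Fn1 to 0.08 for Lum, so such a ratio depends on the marker chosen. Divided by the geometric mean of the 14 stromal markers, Igf1 was at 0.428 and 0.412 in dd and at 0.518 and 0.695 in ff, without overlap, and the ratio of the group means was 0.693. On the scale of the 14 markers, the ratios of dd over ff for the 9 tested members ran from 0.573 for Igfbp3 to 1.34 for Igf1r, with a median of 1.10. Igfbp6 was at 0.347 and 0.288 in dd and 0.319 and 0.317 in ff, a ratio of 0.998. The ratio was above 1 for 5 of the 9 (Igf1r, Igf2r, Igfbp2, Igfbp4 and Igfbp7), although their log2 changes in CPM were below 0. On this scale the groups overlapped for 5 of the 9 (Igfbp2, Igfbp3, Igfbp4, Igfbp6 and Igfbp7). Of the members above 1, only Igf1r and Igf2r were without overlap. Igf2r, for example, was at 0.262 and 0.277 in dd and at 0.228 and 0.251 in ff. Per count of Pdgfra the ratio was above 1 for 7 of the 9, all but Igf1 (0.921) and Igfbp3 (0.713), with a median of 1.37. Per Pdgfra the groups overlapped for 4 of the 9 (Igf1, Igfbp2, Igfbp3 and Igfbp5).

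Markers of other sources differed too. Of 5 red cell markers tested 4 were called higher in the libraries labelled dd, and the summed levels of the list were 238 and 306 CPM in dd and 69.2 and 68.0 CPM in ff. The fifth, the globin gene Hba-a2, lay the other way, with 51 and 4 counts in dd and 205 and 233 in ff (log2 −2.62, edgeR adjusted p = 0.174). Hba-a2 is a near-identical copy of Hba-a1, one of the called genes, so the split of reads between them is uncertain. Of 5 plasma and B cell markers tested 2 were higher. The summed levels of that list were 505 and 988 CPM in dd and 112 and 119 CPM in ff. Jchain alone stood at 439.5 and 894.6 CPM in dd and 34.7 and 58.5 CPM in ff. Of 5 oviduct markers 2 were higher, and the summed levels of the list were 204 and 227 CPM in dd and 113 and 87.2 CPM in ff. Most of this sum came from Ovgp1, which was called, and Pax8, which was not. Ovgp1 had 121.8 and 124.7 CPM in dd and 27.0 and 24.9 CPM in ff. Pax8 had 72.1 and 89.5 CPM in dd and 79.0 and 53.8 CPM in ff. No smooth muscle marker of 8 was called by edgeR, with summed levels of 11320 and 6438 CPM in dd and 8249 and 7015 CPM in ff. Among 5 liver markers Fgb and Serpina1a were at 0 in all libraries, and only Ttr was tested. Ttr, which encodes transthyretin, had 23 and 98 counts in dd and 522 and 232 in ff, and did not pass (log2 −2.44, unadjusted p = 0.0145, edgeR adjusted p = 0.0896). Apoa1, which encodes an apolipoprotein, had 0 and 2 counts in dd and 3 and 151 in ff, so its level rests on ff replicate 2. The part of these sources in the values of the IGF axis was not tested.

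Other genes of the pathway were read from lists. Of 4 tested genes for further ligands, insulin receptors and the carrier Igfals, 0 were called in either direction by edgeR, while at an unadjusted p under 0.05 Insl3 and Insr were lower. The insulin receptor gene Insr had 1800 and 2215 counts in the libraries labelled dd and 4090 and 2996 in those labelled ff (log2 −0.55, edgeR adjusted p = 0.0789). Insl3, an insulin-like peptide of the gonads, had 10 counts in each library labelled dd and 53 and 33 in those labelled ff (log2 −1.82, adjusted p = 0.0565).

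Among proteases that cut binding proteins and the inhibitors of these proteases, 2 of 9 tested genes were lower and 0 higher, at a median of 0.09. The called genes C1s1 and C1ra encode complement proteases, which in human fibroblasts cleave IGFBP5. C1s1 had 178 and 163 CPM in the libraries labelled dd and 264 and 248 CPM in those labelled ff (log2 −0.58, adjusted p = 0.0383), and C1ra had a log2 change of −0.59 (adjusted p = 0.0468). Stc1, which encodes an inhibitor of PAPP-A, had 910 and 2126 counts in dd and 226 and 470 in ff, a log2 change of 2.32 just outside the threshold (edgeR adjusted p = 0.0541). Pappa itself had a log2 change of 0.09. Both complement calls were lost without any 1 library, at log2 changes between −0.71 and −0.48. The call of C1ra was also lost in limma on log2 of FPKM plus 0.5, 0.1 or 1 (adjusted p from 0.052 to 0.055).

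Among 11 tested genes that share the amino-terminal domain of the binding proteins, Esm1 was higher and 0 were lower, at a median of −0.39. Esm1, an endothelial proteoglycan gene, had 431 and 463 counts in the libraries labelled dd and 59 and 19 in those labelled ff, a log2 change of 3.80 (adjusted p = 0.0264). It was at 3.68 without dd replicate 1 (edgeR adjusted p = 0.0583) and at 3.92 without dd replicate 2 (adjusted p = 0.0607), which ended the call, and at 4.77 without ff replicate 1 and 3.23 without ff replicate 2, which did not. Endothelial markers were lower in the same libraries. Ccn1, a matricellular gene of the same domain family, also had a high ff replicate 1, with 306 and 539 counts in dd and 2610 and 663 in ff, and did not pass (adjusted p = 0.159).

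Downstream of the receptors, 1 of 18 tested adaptors and brakes was higher and 1 lower, at a median of 0.01. Irs1, an adaptor of IGF1R and the insulin receptor, had 47.5 and 63.3 CPM in the libraries labelled dd and 17.3 and 22.2 CPM in those labelled ff. Both values in dd were above both in ff, and the log2 change was 1.49 (SE 0.199, edgeR adjusted p = 0.0267). The call of Irs1 was lost without ff replicate 1 (adjusted p = 0.0852) or dd replicate 2 (0.0613). Irs2, the related adaptor, had 74 and 183 counts in dd and 372 and 229 in ff, and did not pass (log2 −1.01, adjusted p = 0.175). Grb10, an adaptor that restrains IGF1R and is imprinted, was lower at 175 and 184 CPM in dd against 250.5 and 254 CPM in ff (log2 −0.49, adjusted p = 0.0426). That call was lost without any 1 library (edgeR adjusted p between 0.096 and 0.15) and with the replicate block (0.068).

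In the PI3K, AKT and mTOR list 2 of 25 genes were higher and 0 lower, with a median of 0.00. Sgk1, a kinase related to AKT, had 213 and 242 CPM in the libraries labelled dd and 41.1 and 45.0 CPM in those labelled ff. Its log2 change was 2.40 (SE 0.113, edgeR adjusted p = 0.00974), and the call was kept whichever library was left out, at 2.31 to 2.50. Pik3cb, a catalytic subunit of PI3K, was at 38.6 and 38.4 CPM in dd and 18.1 and 21.6 CPM in ff, a log2 change of 0.96 (adjusted p = 0.0264). Its call needed ff replicate 1 (adjusted p = 0.0781 without it), dd replicate 1 (0.065) and dd replicate 2 (0.0741). The kinase genes Akt1 and Akt2 were not called by edgeR, with log2 changes of 0.07 and −0.16.

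Of 9 genes of growth hormone signalling, which drives Igf1 in the liver, 1 was higher and 1 lower, at a median of 0.26. The feedback inhibitor gene Socs3 had 430 and 437 counts in the libraries labelled dd and 2064 and 1349 in those labelled ff (log2 −1.69, adjusted p = 0.0264), and Cish, another inhibitor of this family, was higher (log2 0.69, adjusted p = 0.0368). The receptor gene Ghr had 48.0 and 41.3 CPM in dd and 25.7 and 30.4 CPM in ff and did not pass (log2 0.67, edgeR adjusted p = 0.053). Socs3 passed in 13 of 17 alternatives. It kept its call without ff replicate 2 and lost it without any other library, at log2 changes of −1.93 to −1.41. Cish lost its call without any 1 library, at log2 changes of 0.63 to 0.75. The call of Cish was also lost with the replicate block in edgeR (adjusted p = 0.0578). In limma on log2 of FPKM plus 0.5, 0.1 or 1 it was lost too (adjusted p from 0.0621 to 0.0662). Of 2 tested IGF2 mRNA-binding protein genes 1 was higher and 0 lower, at a median of 0.42. Igf2bp2, which binds transcripts of IGF2 and others, stood at 37.4 and 45.9 CPM in dd against 22.1 and 20.7 CPM in ff (log2 0.96, adjusted p = 0.0292). Among the fits that left out 1 library, Igf2bp2 kept its call only without dd replicate 1. Its log2 change ran from 0.81 to 1.11 over these fits. The call of Igf2bp2 was also lost in limma on log2 of FPKM plus 1 (adjusted p = 0.0526).

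**Figure D4:**
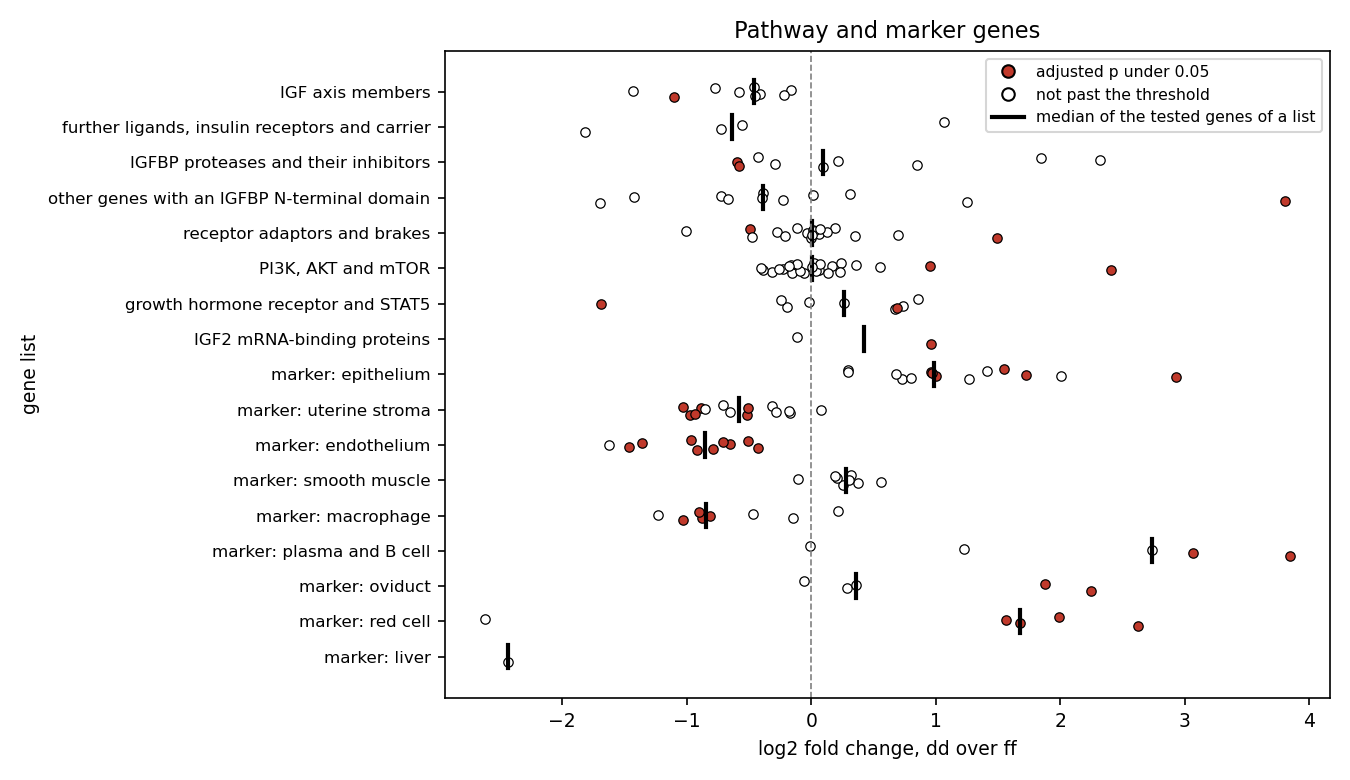
Log2 fold change of dd over ff of each tested gene in the pathway and marker lists, filled where the edgeR adjusted p was under 0.05, with a black bar at each list's median. The IGF axis lies wholly below 0, with its median at −0.46, between the stromal markers at −0.58 and the PI3K, AKT and mTOR genes at 0.00.

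The genes whose profile over the 4 libraries lay nearest to that of Igf1 were found by the root mean square difference of centred log2 CPM, among 4903 genes with a mean of at least 50 CPM. They were Rhoj (0.078), a small GTPase of endothelium, Rgs5 (0.0898), a pericyte regulator of G protein signalling, Ggta1 (0.0964), Sorl1 (0.0983) and Mpp1 (0.104). Their log2 changes ran from −1.18 for Rhoj to −0.90 for Sorl1, and Rgs5 was not called (edgeR adjusted p = 0.0536). Rhoj had 119 and 95.2 CPM in the libraries labelled dd and 227 and 259 CPM in those labelled ff. For Igfbp3, the member of at least 10 CPM with the largest change, the nearest were Vwf (0.259), the clotting factor of endothelium, Tnc (0.259), a matrix glycoprotein, Dkk3 (0.3), Slco2a1 (0.307) and Egr1 (0.307). The distances were larger than for Igf1, and Vwf had 28.0 and 57.6 CPM in dd and 179 and 86.3 CPM in ff. Nearness over 4 libraries does not identify a cell source, and a shared source was not tested.

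The number of members called lower moved with the settings, and so did the share of all genes. DESeq2 called 5 (Igf1, Igf2r, Igfbp5, Igfbp6 and Igfbp7), beside 7.65% of all genes called lower. Without a filter edgeR called 5 (Igf1, Igf2r, Igfbp3, Igfbp5 and Igfbp6), beside 4.29%, and at an adjusted p under 0.1 also 5 (Igf1, Igf2r, Igfbp5, Igfbp6 and Igfbp7), beside 8.75%. Upper quartile factors and unscaled library sizes both gave 3 (Igf1, Igf2r and Igfbp5), beside 4.48% and 5.5% of all genes. A filter of 1 CPM in 2 libraries gave Igf1 and Igf2r, beside 4.62%. Limma-voom gave Igf1 and Igfbp5, beside 3.75%, and the replicate block the same pair, beside 3.52%. Without ff replicate 2 the calls were Igf1 and Igfbp3, beside 2.43%, and 0 members were called without ff replicate 1, dd replicate 1 or dd replicate 2. In those 3 fits edgeR called only 0.145%, 1.12% and 0.635% of all genes lower, so 0 of 9 is near the background and says nothing about the members.

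**Figure D5:**
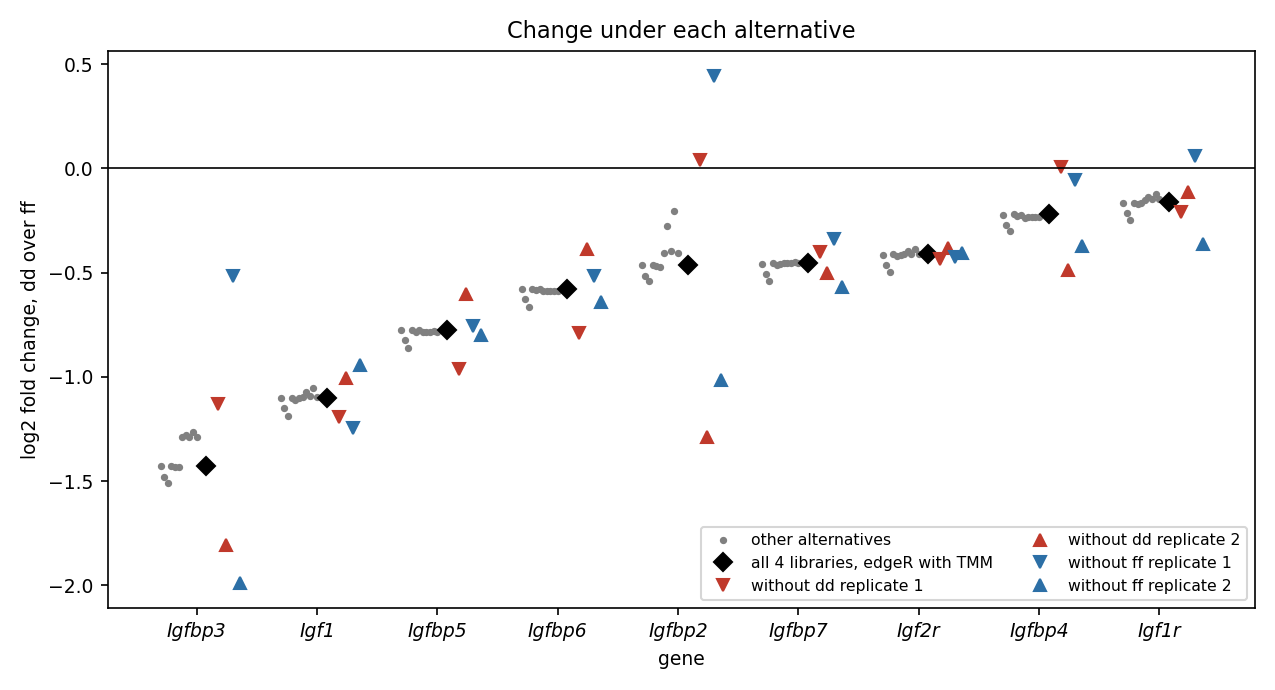
Log2 fold change of dd over ff of each tested IGF axis gene with all libraries (black diamonds), with each library left out (triangles) and under the other alternatives (grey points). Igf1 stays between −1.25 and −0.94, while Igfbp3 runs from −1.99 to −0.52 and Igfbp2 from −1.29 to 0.44.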

How the data were processed

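RNA was measured in whole uteri on pregnancy day 4, in 2 libraries labelled dd and 2 labelled ff. STAR, edgeR and the mm10 build are named, without versions, per the submitters' processing notes of the authors; no source used here gives the read counter, the annotation or the use of strand. The authors deposited whole-number counts per gene symbol, a signal column of rescaled counts (not used) and, per the file headers, FPKM. They also deposited a ratio of dd to ff, called a fold, and its p-value before adjustment. Positions come from GENCODE release M21, which matched 54152 of 54152 symbols, and windows before start sites from RefSeq (GRCm38.p6).

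Deposited counts were tested with edgeR 4.0.16 (R 4.3.3), with TMM factors, filterByExpr, a quasi-likelihood test and Benjamini-Hochberg adjustment over all 18530 tested genes, and called at an adjusted p under 0.05. SE and 95% intervals come from that fit. Alternatives were other scalings and filters, DESeq2 1.42.0, limma 3.58.1 (voom, and log2 of FPKM plus 0.5, 0.1 or 1), a replicate block, each library left out and thresholds of 0.01 and 0.1. The test was tested on simulated data. The genes of the axis and the lists were chosen with earlier results of these data known. All 10 genes are named, with called list genes (at most 4 a list) and the 5 nearest profiles of Igf1 and of the most changed gene; other list genes named were chosen after their values were seen. Replicates were not 1 library deposited again: chi-square over its degrees of freedom was 36.0 in dd and 35.3 in ff. Floors of 3 counts cover counting error only.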

Additional observations from a re-analysis of the deposited data

How the results depend on the processing

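The log2 changes of Igf1, Igf2r, Igfbp3, Igfbp5, Igfbp6 and Igfbp7 were below 0 in each of 17 alternatives, and Igf1 passed in 13 of them. Leaving out 1 library gave Igf1r between −0.36 and 0.061 (without ff replicate 1), Igfbp2 between −1.29 and 0.44 (without ff replicate 1; 0.039 without dd replicate 1) and Igfbp4 between −0.48 and 0.0091 (without dd replicate 1). With all libraries 1 member was called lower, against 3 with upper quartile factors, 3 with library size alone, 5 without a filter, 2 with a filter of 1 CPM in 2 libraries, 5 with DESeq2, 2 with limma-voom, 0 at an adjusted p under 0.01 and 5 under 0.1. Leaving out 1 library gave 0 to 2. Over all genes 1554 were called, against 2947 without a filter, 3001 with DESeq2, 10 at an adjusted p under 0.01, 3388 under 0.1, and 90 to 1198 without 1 library, fewest without ff replicate 1. Why these counts moved was not tested, beyond fewer samples or another threshold by construction. Higher genes made up 53.9% of calls with TMM, 47.4% with upper quartile factors and 42.4% with library size alone. With the replicate block, 1531 genes and 2 members (Igf1 and Igfbp5) were called. The deviations of same-numbered libraries correlated at 0.0129, so the numbers are not shown to pair the samples. A group reduced to 1 library is assumed to vary like the other group. Low counts limit Igfbp1, Igfbp2 and Igf2, and for Igf2 the treatment of reads shared with Gm49394 is unknown.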
